A study of Mus musculus with 15 samples.

Results

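A20 is a mouse B-cell lymphoma line of BALB/c origin, and the libraries compared here came from 2 of its derivatives, the clones E6.1 and E6.2. Both were made with the same Cas9 guide against exon 6 of *Foxp1* and were grown from separate single cells, and the labels give both the genotype of a mutation in that exon. They were chosen by their titles: the 3 libraries of E6 clone 1 and the 3 of E6 clone 2, which is 6 of the 15 libraries of the series. The other 9 came from the unedited parental A20 line and from 2 clones, E7.1 and E7.2, mutated in exon 7 of the same gene, with 3 libraries each. These 9 entered the fit and are given where they show which of the E6 clones departed from the rest. No agent was given to any line according to the labels, and the 3 libraries of a line were collected from separate passages. Each line is 1 clone, so every p-value below compares 2 clones and their passages, and the clone cannot be told apart from the edit that it carries.

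Foxp1 is a forkhead transcription factor that mostly represses its target genes and is needed for early B-cell development. A Cas9 cut repaired by end joining leaves a different small insertion or deletion in each cell, and a clone copies the state of the 1 cell from which it grew, including mutations, chromosome changes and heritable expression states unrelated to the guide. Clones of 1 guide share the target and the sites that the guide could cut by sequence similarity. Whether such a site is cut, and how it is repaired, can differ between clones. A comparison between them therefore shows how far cells differ when the intended edit lies in the same exon.

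*Foxp1* RNA (chr6:98925338-99522721, minus strand, GRCm38) did not separate the clones. Its levels, in counts per 1000000 counts of a library scaled by the trimmed mean of M-values (CPM), were 103, 99.5 and 109 in E6.1 and 109, 104 and 105 in E6.2. The fitted log2 difference, here and below E6.2 minus E6.1, was 0.03 with a standard error of 0.20 (edgeR quasi-likelihood test, adjusted p = 0.965). The parental libraries had 102, 166 and 147 CPM, a range that held all 3 values of E6.2 and all but 1 of E6.1. Counts summed over a gene do not show a small deletion, so these levels check neither clone's edit.

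The libraries held 26328054 to 39181530 counts assigned to genes, which were total reads and not unique molecules. The 3 E6.2 libraries differed more among themselves than the 3 E6.1 libraries: over 11493 genes at 1 CPM or more, the median SD of log2 CPM was 0.340 in E6.2 and 0.120 in E6.1. In E6.2 replicate 1, 20.4% of the counts fell in the 10 highest genes, against 5.55% to 6.62% in E6.1, and *Gm42418*, a locus that collects ribosomal RNA reads, took 10.3% of that library's counts. E6.2 replicate 3 had 9.09% in its 10 highest genes. The part of this spread in the differences was not tested, and counts without E6.2 replicates 1 and 3 are given with the calls. All 10 B-cell marker genes tested were present in both clones, with a sum of 2462 to 2484 CPM in E6.1 against 2091 to 2624 CPM in E6.2, and edgeR called 0 of them, as did DESeq2's Wald test, with 3 at an unadjusted p under 0.05. Markers of other cells stayed low: the 14 T and NK cell genes listed summed to at most 4.63 CPM, the 14 myeloid genes to at most 13.6 CPM, the 10 fibroblast genes to at most 0.883 CPM and the 8 erythroid genes to at most 4.9995 CPM in the 6 libraries.

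The mutant clones of 1 guide differed at 173 genes. Of 13904 genes that passed the low-count filter, 67 were higher in E6.2 (0.482% of those tested) and 106 were lower (0.762%), together 1.24%, at an adjusted p under 0.05. Among them 145 differed at least 2-fold (1.04% of those tested), 56 upwards and 89 downwards, and 62 differed more than 8-fold, 26 upwards and 36 downwards. The median log2 difference of the called genes was 2.03 upwards and -1.70 downwards, against 0.04 over all genes tested. The libraries of the clones did not overlap at 67 of the 67 genes called higher, where 7.34% of all tested genes had that pattern, and at 105 of the 106 called lower, where the background was 10.2%. A call favours genes with this pattern, so the pattern is no separate evidence. At an unadjusted p under 0.05 the counts were 1056 genes higher (7.59%) and 742 lower (5.34%), so more genes were weakly higher in E6.2 while more were called lower.

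The plot of log2 differences against expression shows how the called genes spread over the whole range of levels. In bulk RNA a lower level can mean fewer cells with the transcript or less transcript in each cell, and these cannot be told apart. The number of calls moved with the libraries in the fit. Without E6.1 replicate 1, 2 and 3 the number called higher was 39, 40 and 35, all among the 67. Without E6.2 replicate 1, 2 and 3 it was 58, 111 and 95, of which 54, 57 and 52 were among the 67. The number called lower was 70 without E6.1 replicate 2 and 70 without E6.1 replicate 3, with 67 of the 106 kept in each. It was 95 and 100 without E6.2 replicate 1 and 3, with 74 and 80 of the 106 kept. With E6.2 replicates 1 and 3 both left out, 35 genes were called higher and 51 lower.

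**Figure D1:**
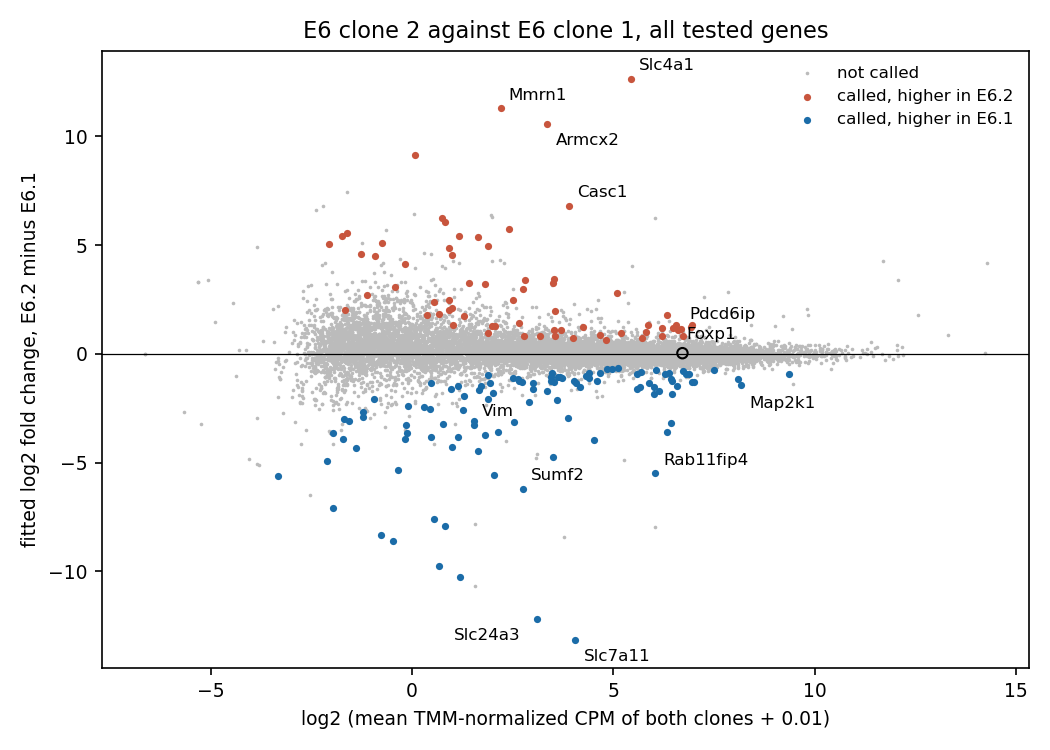
Fitted log2 fold change between E6.2 and E6.1 (y axis) against the log2 of the mean level of both clones in CPM (x axis) for the 13904 tested genes, each point 1 gene. The 67 genes called higher in E6.2 and the 106 called higher in E6.1 are coloured, and Foxp1 (ring) sits near 0; values beyond about 8 come from genes with 0 or few counts in 1 clone.

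The called genes were mostly protein-coding, 63 of the 67 higher and 100 of the 106 lower, and 60 and 95 of them had a mean of 1 CPM or more in the clone with the higher level. The levels in the other lines were read for each called gene on the log2(CPM + 0.1) scale, as a description with no test. The same counts over all tested genes were not made, so the splits below have no background beside them. For 90 of the 106 genes lower in E6.2 the parental level lay nearer to E6.1, and for 16 nearer to E6.2. E7.1 was nearer to E6.1 for 80 of these 106 and E7.2 for 89. For the 67 genes higher in E6.2 the split was less one-sided: the parental level lay nearer to E6.1 for 27 and nearer to E6.2 for 40. Against the parental line itself, 45 genes were called in E6.1 (0.324%) and 163 in E6.2 (1.17%). These last 2 comparisons share the parental libraries with each other and the E6 libraries with the comparison of the clones.

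The widest differences were genes with reads in one clone and almost none in the other. In all, 16 genes had at most 3 counts in each library of one clone and a mean of 1 CPM or more in the other while being called between the clones, 9 of them silent in E6.2 and 7 in E6.1. In 5 of the 9 genes silent in E6.2 and in 1 of the 7 silent in E6.1 the parental mean was 1 CPM or more. Fitted values of such genes depend on the prior count, so the folds below are bounds against 3 counts per library, or ratios of summed counts with an exact 95% interval that covers counting error only.

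*Slc7a11*, which encodes the cystine/glutamate antiporter that supplies cystine for glutathione synthesis, had no read in any E6.2 library. Its E6.1 libraries had 38.0, 27.2 and 33.9 CPM, and the parental libraries 16.4, 40.7 and 31.8 CPM. E6.1 was at least 331-fold higher (adjusted p = 0.000112). The gene lies at chr3:50364936-50443613 on the minus strand. *Slc24a3*, a potassium-dependent sodium/calcium exchanger (chr2:145167754-145642166), was also at 0 in all 3 E6.2 libraries and at 18.2, 15.8 and 17.7 CPM in E6.1, at least 173-fold higher (adjusted p = 5.2e-05). All 9 libraries of the other lines had reads from both of these transporter genes, the lowest being 3.69 CPM of *Slc7a11* and 9.04 CPM of *Slc24a3*. Over the 208 tested genes named as solute carriers, a family looked at after the values were seen, 3 were called higher and 3 lower, together 2.88% beside 1.24% of all genes tested, with a median log2 difference of 0.05.

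Also with 0 reads in E6.2 was *Atp6ap1l*, named for its likeness to an accessory subunit of the vacuolar proton pump, at 4.60, 5.07 and 3.88 CPM in E6.1 and at least 45.3-fold higher there. *Adgrl2*, an adhesion G-protein-coupled receptor of the latrophilin family, had 1.11, 2.19 and 0.976 CPM in E6.1 and none in E6.2. In this case E6.1 was the lower of the lines that expressed the gene, since the parental libraries had 4.96, 3.68 and 4.80 CPM and the E7 libraries 4.23 to 9.83 CPM. *H1fx*, a linker histone, had 1 read in the 3 E6.2 libraries together, and the ratio of E6.1 to E6.2 was 314 (interval 55.9 to 12423). E7.1 was also low in *H1fx*, at 0.0511 to 0.119 CPM, while E7.2 had 1.48 to 5.04 CPM. *Colq*, which makes the collagen tail of acetylcholinesterase, had a ratio of 262 (interval 46.6 to 10365), and the E7 clones had at most 0.107 CPM of it. The noncoding *Lncenc1* had a ratio of 45.8 (interval 15.4 to 225).

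The remaining 2 of these 9 genes were *Gm13715* and *Gm21850*, which had reads in E6.1 and in no library of the other 4 lines. *Gm13715* was at 3.55, 2.49 and 3.38 CPM in E6.1. *Gm21850* was at 1.11, 0.818 and 1.53 CPM, and its call was lost without E6.1 replicate 1, 2 or 3 (adjusted p = 0.0891, 0.0758 and 0.0997). *Lncenc1* was called only with all libraries or without E6.2 replicate 1 among the fits that leave out 1 library (adjusted p = 0.0764, 0.135 and 0.111 without E6.1 replicate 1, 2 and 3, and 0.0862 and 0.0871 without E6.2 replicate 2 and 3).

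Among the 7 genes silent in E6.1, *Slc4a1* had the largest ratio. It encodes band 3, the anion exchanger of the red cell membrane, and lies at chr11:102348824-102366203 on the minus strand. E6.2 had 59.3, 83.0 and 116 CPM, while E6.1 had 1 read in its 3 libraries and no other library exceeded 0.192 CPM. The ratio of E6.2 to E6.1 was 9030 (interval 1620 to 356700). The level was thus high in a single line of the 5. Of the 4 erythroid markers tested 0 were called by edgeR's quasi-likelihood test or by DESeq2's Wald test, and 1 by edgeR's likelihood ratio test. By the quasi-likelihood test 2 had an unadjusted p under 0.05. Their means were 0.264 CPM in E6.1 against 0.0131 CPM in E6.2 for the globin *Hbb-bt* and 0.208 and 1.21 CPM for *Alas2*, the first enzyme of heme synthesis in red cells.

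*Armcx2* on the X chromosome (chrX:134804145-134809221), a member of the armadillo-repeat family, had the opposite relation to the other lines. It was lost from E6.1, with 1 read in 3 libraries, and present in E6.2 at 20.2, 24.9 and 16.3 CPM. The parental libraries had 23.8, 21.0 and 23.9 CPM and the 6 E7 libraries 6.45 to 14.3 CPM. The ratio of E6.2 to E6.1 was 2090 (interval 375 to 82582, adjusted p = 4.5e-09).

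*Mmrn1*, multimerin of platelets and endothelium, was at 14.3, 10.04 and 3.13 CPM in E6.2 and at 0 in E6.1, at least 102-fold higher. *Dhh*, the hedgehog ligand Desert hedgehog, was at 2.68, 2.36 and 1.203 CPM in E6.2 and at 0 in E6.1, at least 23.2-fold higher. Both were at or below 0.0873 CPM in every other library, so their reads came almost wholly from E6.2.

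*Psd3*, an exchange factor for Arf6, and *Gm15991* lie on opposite strands of the same stretch of chromosome 8, and both had reads in E6.2. *Psd3* had 1.69, 1.30 and 0.421 CPM there and a ratio of 37.1 (interval 12.3 to 183). Its call was lost without E6.1 replicate 1 or 3 (adjusted p = 0.0861 and 0.0796), and that of *Gm15991* without E6.1 replicate 3 (adjusted p = 0.0534). Reads from overlapping genes cannot be assigned with certainty here, since a strand setting is not given in the sources used.

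*Map1b*, a microtubule-associated protein of neurons, had a wide spread in E6.2, with 5.90, 3.27 and 0.662 CPM against at most 0.0981 CPM in E6.1. The exon 7 clones, made with another guide, were as low as E6.1, at most 0.0298 CPM in E7.1 and 0.0264 CPM in E7.2. The paper names *Map1b* among the genes most similar in sequence to the exon 6 guide and reports its transcript as unaltered. It also states that regions of potential off-target genes were inspected for mutations in the RNA sequencing data. Against the parental line neither clone passed at *Map1b* (edgeR quasi-likelihood test, adjusted p = 0.126 in E6.1 and 0.179 in E6.2). Whether the guide cut there was not tested here. The lowest E6.2 library lay inside the parental range of 0.484 to 0.801 CPM, so E6.2 did not separate from the parental line at this gene. The plot of levels by library shows these genes in all 15 libraries.

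Promoters of some genes that were on in one clone and off in the other, and of *Casc1*, are shown for their content of CpG. This is the dinucleotide at which mammalian DNA is methylated. The 250 bases before the annotated start were taken from RefSeq (GRCm38.p6) for the 7595 tested genes with exactly 1 annotated window, which include 7 of the 16. CpGs are in capitals, and each sequence reads 5′ to 3′ on the strand of its gene.

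*Slc7a11*, chr3:50443614-50443863, minus strand: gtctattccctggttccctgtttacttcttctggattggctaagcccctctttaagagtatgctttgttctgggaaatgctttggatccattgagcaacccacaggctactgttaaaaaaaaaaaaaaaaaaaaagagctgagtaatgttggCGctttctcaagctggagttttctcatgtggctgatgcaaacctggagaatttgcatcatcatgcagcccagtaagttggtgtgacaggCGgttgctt
*Armcx2*, chrX:134809222-134809471, minus strand: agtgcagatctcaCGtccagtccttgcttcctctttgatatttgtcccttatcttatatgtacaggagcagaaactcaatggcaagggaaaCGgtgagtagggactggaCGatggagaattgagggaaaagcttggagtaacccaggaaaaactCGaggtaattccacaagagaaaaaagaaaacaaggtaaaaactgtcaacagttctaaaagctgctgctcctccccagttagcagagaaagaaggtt
*Dhh*, chr15:98898541-98898790, minus strand: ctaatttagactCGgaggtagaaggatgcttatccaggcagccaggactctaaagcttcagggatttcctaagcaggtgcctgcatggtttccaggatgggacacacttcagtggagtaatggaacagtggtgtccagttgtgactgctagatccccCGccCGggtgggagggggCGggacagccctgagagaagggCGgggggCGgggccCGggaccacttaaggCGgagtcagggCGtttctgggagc
*Map1b*, chr13:99516603-99516852, minus strand: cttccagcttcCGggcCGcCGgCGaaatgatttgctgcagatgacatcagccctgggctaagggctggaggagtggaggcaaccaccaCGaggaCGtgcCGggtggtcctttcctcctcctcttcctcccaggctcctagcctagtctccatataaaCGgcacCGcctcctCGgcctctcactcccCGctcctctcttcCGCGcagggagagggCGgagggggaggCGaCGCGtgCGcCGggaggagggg
*Casc1*, chr6:145210971-145211220, minus strand: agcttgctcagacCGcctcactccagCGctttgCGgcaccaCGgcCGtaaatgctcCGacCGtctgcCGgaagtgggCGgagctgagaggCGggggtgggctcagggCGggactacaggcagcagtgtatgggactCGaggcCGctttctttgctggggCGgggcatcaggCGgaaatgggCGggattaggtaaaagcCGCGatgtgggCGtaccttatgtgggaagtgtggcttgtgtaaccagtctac

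*Slc7a11*, off in E6.2, had 2 CpGs in this window, *Armcx2*, off in E6.1, had 4, and *Dhh*, off in E6.1, had 9. The windows of *Adgrl2*, *Lncenc1* and *Mmrn1*, not printed, had 3 each. Those of *Adgrl2* and *Mmrn1* lie inside the span over which the gene was counted. *Map1b* had 19, and it was the 1 of the 7 windows that met a CpG-rich definition (GC of at least 55% and observed over expected CpG of at least 0.6). *Casc1*, which differed 112-fold without being silent, also had 19. By the same definition 57.4% of all 7595 windows were CpG-rich, 55% of those of genes called higher in E6.2 (22 of 40) and 39.7% of those called lower (27 of 68). The median number of CpGs was 16 over all windows and 3 over the 7. The forkhead core letters TGTTTAC, searched on both strands, were found in 1 of the 7 windows, that of *Slc7a11*, 232 bases before the start, and in 2.09% of all windows. They were in 2.50% of the windows of genes called higher and in 2.94% of those called lower. These are descriptions of letters in 1 window a gene, and methylation was not measured.

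*Rab11fip4*, an effector of the recycling endosome GTPase Rab11, had reads in every library and was far higher in E6.1. It had 115, 136 and 130 CPM in E6.1 against 3.03, 1.87 and 3.52 CPM in E6.2, a log2 difference of -5.50 (SE 0.30, adjusted p = 1.9e-07). The other 9 libraries had 1.26 to 2.73 CPM, so E6.1 was the line that departed. *Evi2a*, the neighbouring called gene on the other strand, was also lower in E6.2, at 3.96 ± 1.11 against 12.1 ± 2.30 CPM (SD, n = 3 libraries each), with a parental mean of 10.1 CPM. Its call was lost without any 1 of the 6 libraries (adjusted p = 0.0509 to 0.128 in the edgeR fits).

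*Sumf2*, a paralogue of the sulfatase-modifying enzyme, was nearly lost from E6.2: 0.276, 0.212 and 0.0601 CPM, against 13.5, 12.3 and 13.8 CPM in E6.1. All other libraries had 7.28 to 17.1 CPM. The log2 difference was -6.19 (SE 0.44, adjusted p = 2.5e-06). *Bco1*, which cleaves beta-carotene to retinal, had 0.0907 to 0.236 CPM in E6.2 against 7.29 to 8.66 CPM in E6.1, with the parental line between them at 2.78 to 4.05 CPM. E7.1 was as low as E6.2, at 0 to 0.179 CPM, and E7.2 had 6.60 to 8.18 CPM.

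In the other direction *Casc1* (chr6:145174834-145210970, minus strand) had 34.5, 23.2 and 30.04 CPM in E6.2 against 0.222, 0.360 and 0.200 CPM in E6.1, a log2 difference of 6.81 (SE 0.45, adjusted p = 1.2e-06). No other library exceeded 0.402 CPM.

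*Krt222* and *Gm15128* had all parental libraries between those of the clones. *Krt222*, a gene of the keratin family, had 5.35, 5.41 and 2.32 CPM in E6.2, 0.0634 to 0.125 CPM in E6.1 and 1.07 to 1.86 CPM in the parental line. *Gm15128* had 5.43 to 6.56 CPM in E6.2, 0.0952 to 0.200 CPM in E6.1 and 1.66 to 2.66 CPM in the parental line. *Defb19*, a beta-defensin, had 2.68, 2.69 and 16.03 CPM in E6.2 and at most 0.327 CPM in E6.1, and its call was lost without E6.1 replicate 1 or 3 (adjusted p = 0.0509 and 0.0529).

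One stretch of the genome differed as a unit. On chromosome 9, at chr9:113651744-114781993 (1130 kb, GRCm38), all 12 tested genes from *Pdcd6ip* to *Cmtm7* were higher in E6.2, and 10 of them were called. The median log2 difference of the 12 was 1.00, with a range of 0.62 to 2.13. The 20 tested genes before the stretch had a median of 0.05 and the 20 after it a median of 0.10. The quasi-likelihood test called 0 genes in either, where 4 and 2 had an unadjusted p under 0.05. Both edgeR's likelihood ratio test and DESeq2's Wald test called 0 and 1. Without E6.1 replicate 2 or 3 the stretch held 11 genes with 6 called. The stretch was found by a running median over 20 genes along each chromosome, so its size is a description of what chose it, and with windows of 40 genes no stretch passed.

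The lower level belonged to E6.1. For the 11 genes of the stretch at 1 CPM or more, the median ratio to the parental mean was 0.556, 0.506 and 0.533 in the E6.1 libraries and 0.899, 1.01 and 1.15 in the E6.2 libraries. It was 0.988 to 1.01 in the parental libraries, 0.919 to 1.02 in E7.1 and 0.963 to 1.06 in E7.2. Every E6.1 library thus lay below every library of the other 4 lines by this measure. Against the parental line the median log2 difference of the 12 genes was -0.87 in E6.1, where 8 were called, and 0.04 in E6.2.

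**Figure D2:**
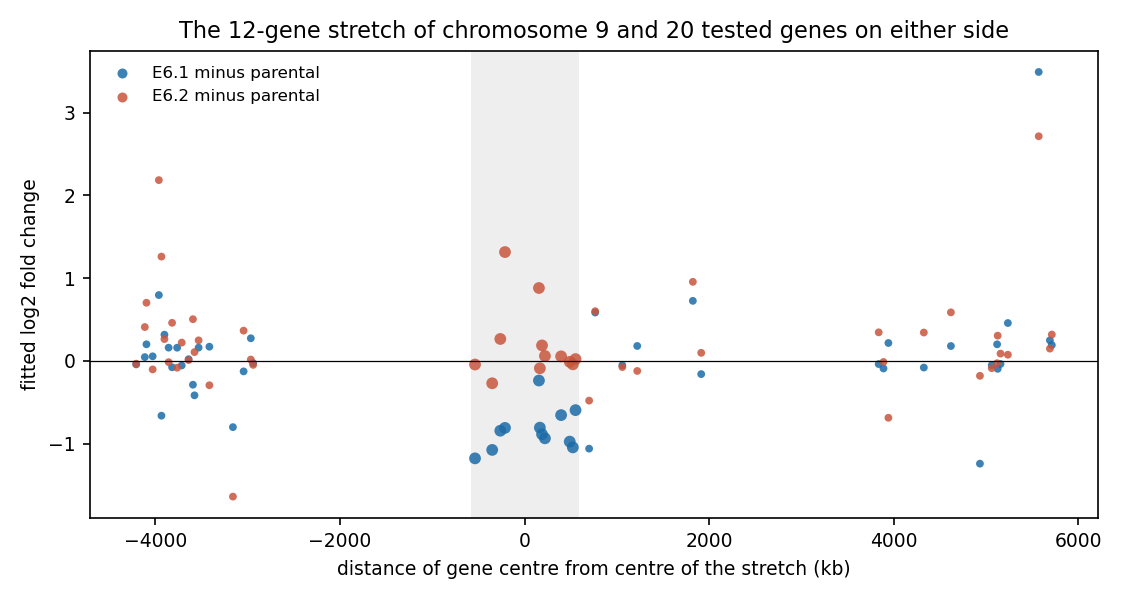
Fitted log2 fold change against the parental line (y axis) of E6.1 and E6.2 for the 12 genes of the chromosome 9 stretch (shaded, large points) and 20 tested genes on either side, by distance of the gene centre from the centre of the stretch in kb (x axis). E6.1 lies below 0 at all 12 genes with a median of -0.87, and E6.2 has a median of 0.04; both contrasts share the parental libraries.

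The 4 called genes of the stretch with the most reads have different roles. *Pdcd6ip* encodes ALIX, an adaptor of the ESCRT machinery, and had 57.8, 72.2 and 62.4 CPM in E6.1 against 114, 137 and 171 CPM in E6.2 (log2 difference 1.13, SE 0.16, adjusted p = 0.00104). *Clasp2*, which stabilises microtubule ends, had 79.8, 77.3 and 73.0 CPM in E6.1 against 142, 137 and 124 CPM in E6.2. *Ubp1*, a transcription factor of the grainyhead-related CP2 family, had 56.8 to 64.7 CPM in E6.1 against 127 to 140 CPM in E6.2. *Cmtm6*, a membrane protein known to keep PD-L1 at the cell surface, had 35.7, 36.2 and 39.4 CPM in E6.1 against 63.7, 82.4 and 77.2 CPM in E6.2. None of these 4 overlapped between the clones. They were named because they were called, and all 67 genes called higher had this pattern, beside 7.34% of all tested genes. The 2 genes of the 12 that did not pass were *Glb1*, the lysosomal beta-galactosidase (log2 difference 1.00, adjusted p = 0.156), and *4930520O04Rik* (1.12, adjusted p = 0.400). *Gpd1l*, the first tested gene beyond the stretch, had a log2 difference of 0.58 and did not pass (adjusted p = 0.0719). Against the parental line *Gpd1l* had -1.06 in E6.1 and -0.48 in E6.2, and without E6.2 replicate 3 the stretch included it. On the other side the nearest tested gene, *Epm2aip1*, lay at -2941 kb from the centre of the stretch, where *Pdcd6ip* lay at -537 kb. The ends of the lower region in E6.1 are thus not fixed by these genes.

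Called genes also lay near each other elsewhere. After the values were seen, called genes with starts within 500 kb were joined, which gave 10 groups with 30 of the 173 genes. In 8 groups all members had the same direction. On chromosome 5 *Golga3*, *Ankle2* and *Pgam5*, which encode a golgin, a nuclear envelope regulator and a mitochondrial phosphatase, were all lower in E6.2, by -0.81, -0.80 and -1.13 on the log2 scale. On chromosome 19 *Armh3*, *Pprc1* and *Nolc1* were lower by -1.28, -0.76 and -0.94, the call of *Pprc1* was lost in 5 of the 6 fits without 1 library, and the 2 tested genes between them, *Hps6* and *Ldb1*, had values of -0.48 and -0.77 without passing. On chromosome 16 *Cd200* and *Gcsam* were both lower. How often called genes of this number would lie so near was not tested.

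The called genes with the most reads were changed by smaller factors. *Snx5*, a sorting nexin of the endosome, had 361, 429 and 554 CPM in E6.2 against 807, 884 and 905 CPM in E6.1 (log2 difference -0.95, SE 0.18, adjusted p = 0.0159). *Map2k1*, which encodes the kinase MEK1, had 147, 195 and 117 CPM in E6.2 against 402, 412 and 445 CPM in E6.1 (log2 difference -1.46, SE 0.16, adjusted p = 0.000103). The parental line was at 164 to 186 CPM of *Map2k1* and the E7 clones at 158 to 182 CPM, so the higher level was that of E6.1. *Cd200*, a surface ligand that dampens myeloid cells, had 59.8, 80.1 and 79.3 CPM in E6.2 against 171, 185 and 188 CPM in E6.1, where the parental line had 163 to 206 CPM. At this gene E6.2 departed from the parental level.

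*Gcsam*, a germinal center adaptor that limits motility, had 161, 151 and 194 CPM in E6.2 against 262, 463 and 404 CPM in E6.1. *Cd53*, a tetraspanin of leukocytes, had 125, 156 and 127 CPM in E6.2 against 238, 209 and 239 CPM in E6.1. The call of *Snx5* was lost without E6.1 replicate 2 or 3 or E6.2 replicate 1 or 2 (adjusted p = 0.0776, 0.0826, 0.0557 and 0.0542), that of *Gcsam* without the same libraries (adjusted p = 0.108, 0.0826, 0.0679 and 0.0600) and that of *Cd53* without E6.1 replicate 1 or 3 (adjusted p = 0.0509 and 0.0601). Among highly read genes higher in E6.2, outside the chromosome 9 stretch, *Cryzl1*, a quinone oxidoreductase-like gene, had 156, 201 and 168 CPM against 76.4, 63.8 and 71.6 CPM in E6.1. *Zbtb41*, a zinc finger gene, had 195, 206 and 112 CPM against 82.9, 63.4 and 75.3 CPM. The call of *Cryzl1* held without any 1 library, while that of *Zbtb41* was lost without E6.1 replicate 1, 2 or 3 or E6.2 replicate 1 or 2 (adjusted p = 0.0572, 0.135, 0.0950, 0.0774 and 0.0633).

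Gene lists for B-cell biology and for general cell functions were compared between the clones, and their members were chosen with earlier results of these data known. Of 373 genes tested in 17 lists, 1 was called higher and 16 lower, together 4.56%, beside 1.24% of all genes tested. MHC class II, the antigen-presenting molecules of B cells, had 0 of 18 tested genes called by edgeR, 0 by DESeq2's Wald test, 2 at an unadjusted p under 0.05, and a median log2 difference of 0.11. The values of the chains and of the master regulator, given although they did not pass, were 0.20 for *H2-Aa*, 0.13 for *H2-Ab1*, 0.14 for *H2-Eb1* and -0.17 for *Ciita*. The MHC class I list had 1 of 22 called, the non-classical *H2-M3*, at 24.0, 23.8 and 23.5 CPM in E6.2 against 39.7, 39.3 and 37.2 CPM in E6.1. Its SD was 0.215 CPM in E6.2 against 1.34 CPM in E6.1, and no library overlapped.

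Of 20 B-cell identity factors, 1 was called. *Myb*, a regulator of early lymphoid progenitors, had 8.11, 11.6 and 8.12 CPM in E6.2 against 25.03, 25.8 and 29.5 CPM in E6.1 (log2 difference -1.53, SE 0.31, adjusted p = 0.0216). The call was lost without any 1 library except E6.2 replicate 2 (adjusted p = 0.0563, 0.0686 and 0.0933 without E6.1 replicate 1, 2 and 3, and 0.0975 and 0.0683 without E6.2 replicate 1 and 3). *Pax5* and *Ebf1*, which set B-cell identity, had values of -0.16 and -0.14 and did not pass.

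Among 17 tested germinal center and plasma cell regulators 2 were called lower. *Irf4*, needed for plasma cell differentiation, had 16.4, 16.3 and 9.86 CPM in E6.2 against 29.6, 42.6 and 30.4 CPM in E6.1 (log2 difference -1.27, SE 0.25, adjusted p = 0.0179), and the call was lost without E6.1 replicate 2 or E6.2 replicate 3 (adjusted p = 0.104 and 0.0594). *Ebi3*, a subunit of IL-27 and IL-35, had 1.81, 1.66 and 1.11 CPM against 5.08, 4.87 and 4.40 CPM. The parental libraries had 37.4 to 48.8 CPM of *Irf4* and 4.06 to 4.48 CPM of *Ebi3*, above all E6.2 libraries. The list's median was -0.25.

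B-cell receptor signalling had 1 of 28 called, *Rasgrp1*, and a median of -0.26. *Rasgrp1*, an activator of Ras downstream of antigen receptors, had 22.4, 28.8 and 26.8 CPM in E6.2 against 59.2, 88.6 and 79.5 CPM in E6.1 (log2 difference -1.54, SE 0.27, adjusted p = 0.00854; 0.0544 without E6.2 replicate 1). *Rasgrp1* is also in the Ras-MAPK list, whose median was 0.10, with *Map2k1* described above. The line that departed from the parental level was E6.1 for *Map2k1* and E6.2 for *Rasgrp1*, which had 76.3 to 134 CPM in the parental libraries.

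Cytokine receptors had 2 of 24 called. *Il22ra1*, a chain of the IL-22 receptor, had 1.42, 0.847 and 0.241 CPM in E6.2 against 20.4, 22.2 and 22.6 CPM in E6.1 (log2 difference -4.73, SE 0.44, adjusted p = 2.9e-05). It also split the exon 7 clones, with 0.536 to 1.04 CPM in E7.1 and 16.9 to 27.3 CPM in E7.2. *Il2rg*, the common gamma chain, had 1.02, 2.63 and 1.44 CPM in E6.2 against 4.09, 5.30 and 5.004 CPM in E6.1 (adjusted p = 0.00943; 0.0510 without E6.1 replicate 2), both below the parental 9.29 to 11.1 CPM. The exon 7 clone E7.1 was above it, at 39.4 to 48.4 CPM.

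The TNF receptor and TRAF list had 2 of 20 called lower. *Tnfrsf13b*, the BAFF and APRIL receptor TACI, had 70.5, 107 and 37.0 CPM in E6.2 against 158, 177 and 189 CPM in E6.1. Its adjusted p was 0.0480 with all libraries and 0.0981, 0.146 and 0.171 without E6.1 replicate 1, 2 and 3, and 0.137 and 0.0563 without E6.2 replicate 1 and 3. *Traf1*, a signalling adaptor of that family, had 6.97, 8.29 and 4.42 CPM against 15.1, 17.5 and 13.6 CPM (adjusted p = 0.0179), and its call was lost without E6.1 replicate 1 or 2 or E6.2 replicate 1 or 3 (adjusted p = 0.0561, 0.0944, 0.0557 and 0.0516).

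The list for cystine, glutathione and ferroptosis had 1 of 26 called, *Slc7a11* itself, and a median of -0.00, so the other 25 genes of that list did not pass. The adhesion and migration list had 3 of 29 called. *Vim*, the intermediate filament vimentin, had 0.472, 0.454 and 0.692 CPM in E6.2 against 4.98, 5.95 and 4.73 CPM in E6.1 (log2 difference -3.26, SE 0.46, adjusted p = 0.00123). *Itgal*, the alpha chain of the integrin LFA-1, had 65.4, 56.5 and 37.6 CPM against 112, 134 and 115 CPM. *Vcl*, the adhesion plaque protein vinculin, was the only list member called higher in E6.2, at 7.91, 7.23 and 12.2 CPM against 3.46, 4.19 and 2.65 CPM (adjusted p = 0.00719; 0.0601 without E6.1 replicate 3).

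The Wnt list had 1 of 21 called, and that gene, *Maml2*, is known as a coactivator of Notch receptors. It had 0.905, 0.998 and 0.120 CPM in E6.2 against 7.99, 7.23 and 8.78 CPM in E6.1 (log2 difference -3.58, SE 0.47, adjusted p = 0.000627). The median of the list was 0.11. Interferon-stimulated genes had 1 of 31 called by edgeR's quasi-likelihood test, 4 by its likelihood ratio test and 5 by DESeq2's Wald test. They had the lowest median of the 17 lists shown, -0.38. The called gene was *Phf11a*, a PHD finger gene, at 0.211 to 0.363 CPM in E6.2 against 1.24 to 2.10 CPM in E6.1 (adjusted p = 0.0152; 0.0826, 0.0518 and 0.0594 without E6.1 replicate 3 and without E6.2 replicate 1 and 3). In this list 10 of 31 genes were lower and 0 higher at an unadjusted p under 0.05, beside 5.34% and 7.59% of all tested genes. *Gbp3*, a guanylate-binding protein, had a value of -1.89 (adjusted p = 0.0719), while *Stat2*, which carries the interferon signal, had a value of -0.03 and did not pass.

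By edgeR's quasi-likelihood test 0 genes were called in the Bcl2 family (14 tested), cholesterol synthesis (24), glycolysis (20), the mitochondrial genome (15) or the corepressor partners of Foxp1 (17). At an unadjusted p under 0.05 these lists had 4, 2, 2, 2 and 2 genes. DESeq2's Wald test called 1, 0, 0, 0 and 1, and edgeR's likelihood ratio test 1, 0, 0, 0 and 0. The plot of the lists shows each member. In the marker lists 1 gene was called, the fibroblast gene *Dcn*, at 0.0952, 0.262 and 0.175 CPM in E6.1 and at 0 in E6.2, and its call was lost in 5 of the 6 fits that left out 1 library.

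**Figure D3:**
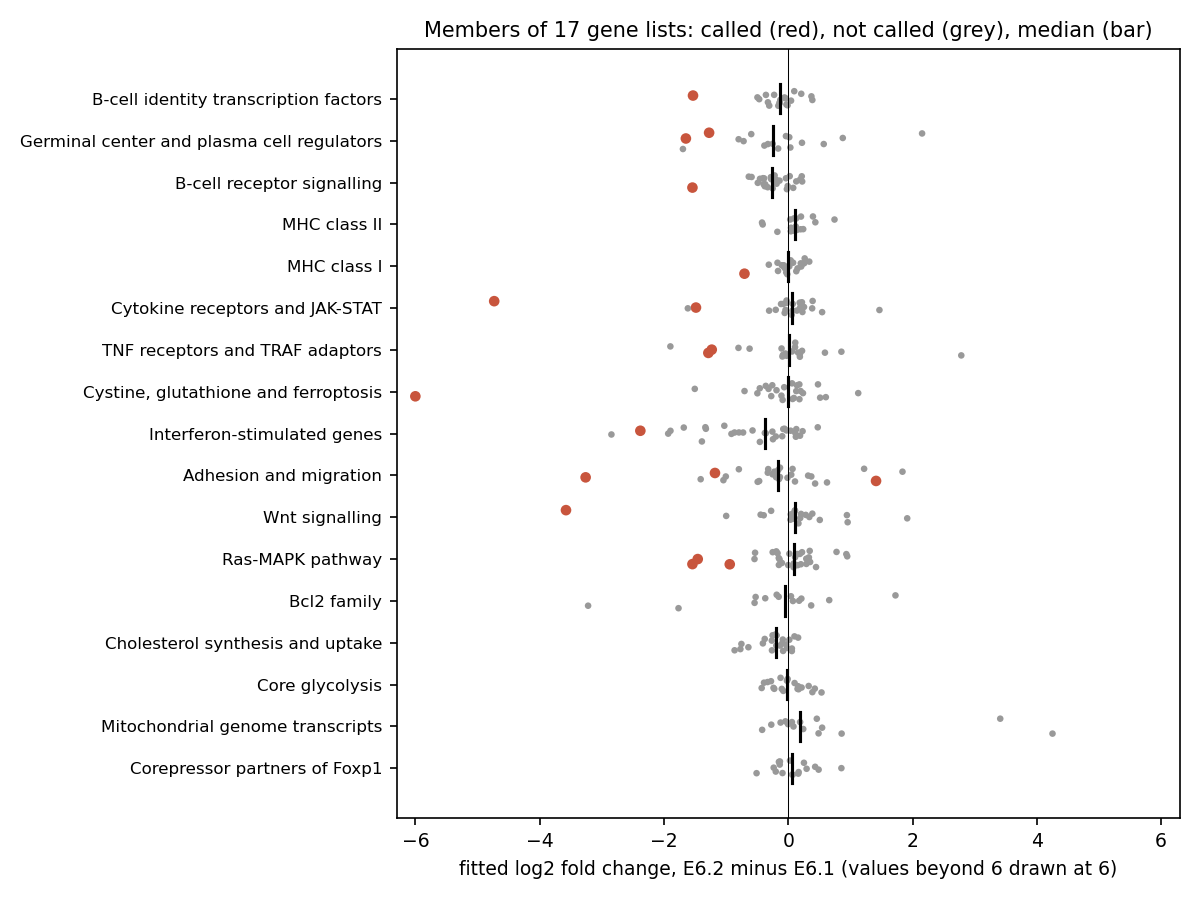
Fitted log2 fold change between E6.2 and E6.1 (x axis) of the tested members of 17 gene lists (rows), called genes in red, others in grey and the list median as a bar. Called members lie to the left of 0 except Vcl at 1.41, and the medians range from -0.38 to 0.19.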

How the data were processed

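Polyadenylated RNA of 15 libraries was sequenced, and the authors deposited, per the file headers, whole-number counts per gene from featureCounts 1.5.0 on the GRCm38 build with spike-in sequences added; HISAT and SAMtools are named in the submitters' processing notes. Strand settings are not given in the sources used here. The 41480 features hold 92 spike-ins, all at 0. Gene symbols were matched to 40254 of 41388 identifiers. The counts were filtered by edgeR's filterByExpr, normalized by TMM and fitted with edgeR 4.0.16 (glmQLFit, glmQLFTest) over all 15 libraries with line as the factor, which gives 1 estimate of spread, and p-values were adjusted by Benjamini-Hochberg over 13904 genes. On simulated data with 200 genes changed in this comparison, 123 were recovered, 79 of 104 changed 4-fold and 44 of 96 changed 2-fold, with 5 unchanged genes called. The simulation gave each gene the same spread in all lines. In the data the median SD of log2 CPM was 0.340 in E6.2 and 0.120 in E6.1, so these rates need not hold here. No pair of libraries differed by as little as sampling noise. Named genes were Foxp1, the 12 largest called differences of each direction with a mean of at least 1 CPM in the higher clone, the 5 called genes of each direction with the most reads, called list members and 4 genes of a positional stretch; others are said to be chosen after their values were seen or given as list members or neighbours. The members and lists were chosen with earlier results of these data known. Alternatives were other scaling, filter, tests (DESeq2 1.42.0) and samples. Some list members are not reported here.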

Additional observations from a re-analysis of the deposited data

Results flagged for a closer look

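At 16 of the named genes all libraries of one E6 clone lay above the parental range and all of the other below it. These genes were named because they were called between the clones, which favours this order. Its share over all tested genes was not counted, so the number is no result about the named genes. Against the parental line itself both clones passed the test only at *Krt222* (edgeR, adjusted p = 0.000743 in E6.1 and 0.0491 in E6.2), so for the other 15 this is an order of the libraries and not a tested change of both clones. The test of the difference is that between the clones (edgeR quasi-likelihood, E6.2 minus E6.1), and the values below are its log2 differences; those of genes at or near 0 in 1 clone depend on the prior count. *Krt222* (5.44), *Gm15128* (5.35), *Defb19* (4.97), *Dhh* (9.16) and ENSMUSG00000096808 (5.74), a gene on an unplaced scaffold, were above the parental range in E6.2 and below it in E6.1. The reverse held for *Il22ra1* (-4.73), *Bco1* (-5.56), *H1fx* (-7.91), *Colq* (-7.61), *Atp6ap1l* (-10.28), *Lncenc1* (-5.32), *Maml2* (-3.58), *Traf1* (-1.23), *Itgal* (-1.18), *Snx5* (-0.95) and *H2-M3* (-0.70). *Atp6ap1l* was at 1.36 to 3.36 CPM in the parental libraries, 3.88 to 5.07 CPM in E6.1 and 0 in E6.2. The distance of each library from the mean of the other 2 of its line was computed (root mean square, log2 CPM). It was 0.906, 0.633 and 0.997 in E6.2 replicates 1, 2 and 3 and 0.383 to 0.458 in E6.1. Among the other 9 libraries the highest was 0.810, in E7.2 replicate 3. With 3 libraries a line, no library was removed from the main fit.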

How the results depend on the processing

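The counts of called genes moved with the test and the libraries. Higher in E6.2, the 67 genes became 109 with no low-count filter (24777 genes tested), 175 with the likelihood ratio test, 214 with DESeq2's Wald test, 29 when the 6 libraries were fitted alone and 35 with E6.2 replicates 1 and 3 left out together, a choice made after seeing the data. The 106 genes lower became 156, 221, 234, 39 and 51. Leaving out 1 library gave 35 to 111 genes higher and 70 to 111 lower, and kept 35 to 57 of the 67 and 67 to 83 of the 106. The unfiltered fit kept 60 of the 67 and 102 of the 106, and the 6 libraries alone 28 and 39. The Wald test and the likelihood ratio test called all 67 of the genes higher again, and 105 and 106 of those lower. DESeq2's size factors gave 68 and 100. Of 51 named called genes, 25 were called in all 14 alternatives, and none changed sign.

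The replicate numbers did not pair the samples: same-numbered libraries of the clones had correlations of 0.0865, -0.0191 and -0.0459 of their deviations. With the replicate block 66 genes were higher and 107 lower.

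Windows of 10 genes gave 11 stretches and windows of 40 gave 0, against 2 in the main setting, of which 1 was *Mmrn1* alone; leaving out 1 library gave 1 to 6. The chromosome 9 stretch was found in all 6 such fits, and its median was 0.90 with E6.2 replicates 1 and 3 left out. The cause of these changes was not tested. The fits also differed in residual degrees of freedom, in the lines that set the spread and in the number of genes tested. Depth did not allow folds for genes at 0 beyond the bounds given.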
